A study of Homo sapiens with 6 samples.

Results

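GATA6, HNF4A, FOXA1, FOXA2, PDX1, SOX9, KLF5, ELF3 and TP63 encode transcription factors that set or mark cell identity in foregut endoderm, pancreatic duct and squamous epithelium. They were listed by gene symbol for their known roles, with earlier results of these data already known, and all 9 were found among the 41768 named genes of a deposited expression table. The table holds 6 libraries of poly(A)-selected RNA from 2 human cell lines labelled as pancreatic ductal adenocarcinoma (PDAC) lines. PANC-1, an established line, is represented by siALDOA 1 and siALDOA 2, read here as cells given small interfering RNA against ALDOA, and by 1 library labelled NC. The line called 90 is represented by the same set: siALDOA 1, siALDOA 2 and 1 NC library. The labels do not spell out NC or 90, do not say whether siALDOA 1 and 2 are different siRNAs, and do not name separate cultures. Each p-value below is therefore set against the scatter among these libraries alone, part or all of which may be technical.

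GATA and FOXA proteins act early at the regulatory DNA of endodermal genes, where FOXA proteins can bind compacted chromatin, and HNF4A, a nuclear receptor, keeps up gut and liver genes later on. PDX1 and SOX9 mark pancreatic progenitors, after which PDX1 is strongest in beta cells and SOX9 stays on in duct cells. KLF5 and ELF3 serve epithelial genes more widely, and TP63 encodes p63, which runs the basal and squamous programme. In PDAC, GATA6 and HNF4A are known as marks of the classical subtype and TP63 as a mark of the squamous one.

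Values are FPKM, which scales fragments to gene length in kilobases and to library depth in M fragments (M for mega), so levels of different genes can be set side by side. Libraries held 18.7 to 21.8 M fragments in PANC-1 and 17.8 to 19.5 M in 90. ALDOA, the siRNA's target, was at 501 and 462 FPKM in the siALDOA libraries of PANC-1, against 906 FPKM in its NC library. In 90 it was at 262 and 318 FPKM in the siALDOA libraries, against 726 FPKM in NC. The keratins of simple epithelium were abundant in both lines, with KRT8 at 1777 ± 229 FPKM in PANC-1 and 1299.8 ± 217 FPKM in 90 (SD, n = 3 each), and KRT18 at 1429.8 ± 206 FPKM in PANC-1 and 1116 ± 142 FPKM in 90. EPCAM and the epithelial cadherin CDH1 were lower in PANC-1, CDH1 at 1.69 ± 0.459 FPKM, against 41.8 ± 3.43 FPKM in 90. All 5 immune, all 5 acinar and all 5 endocrine markers that were checked stayed below 1 FPKM in each library. Of 7 fibroblast markers, COL1A1 exceeded 1 FPKM (9.96 to 13.7 in PANC-1 and 1.20 to 1.68 in 90), and of 4 endothelial markers CDH5 did (0 in PANC-1 and 3.0 to 3.28 in 90).

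The lines carried these factors in a different order. In PANC-1, SOX9 and FOXA2 stood well above the rest at 25.4 ± 2.01 and 22.6 ± 3.30 FPKM (SD, n = 3), and their ranges overlapped. ELF3 and PDX1 followed at 2.30 ± 0.169 and 1.64 ± 0.345 FPKM. KLF5, GATA6, FOXA1, HNF4A and TP63 were all below 0.5 FPKM there, in that order, with each range overlapping the next. In 90 the top places were taken by KLF5, 30.3 ± 15.8 FPKM, and ELF3, 29.95 ± 3.61 FPKM, which overlapped each other. SOX9 at 13.4 ± 1.43 FPKM came next, without overlap on either side. FOXA2 (8.17 ± 1.43), TP63 (7.25 ± 3.18) and GATA6 (7.19 ± 0.333) overlapped in turn, then came FOXA1 (4.83 ± 0.972), PDX1 (1.42 ± 0.191) and HNF4A (0.193 ± 0.0836), each clear of the next.

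**Figure D1:**
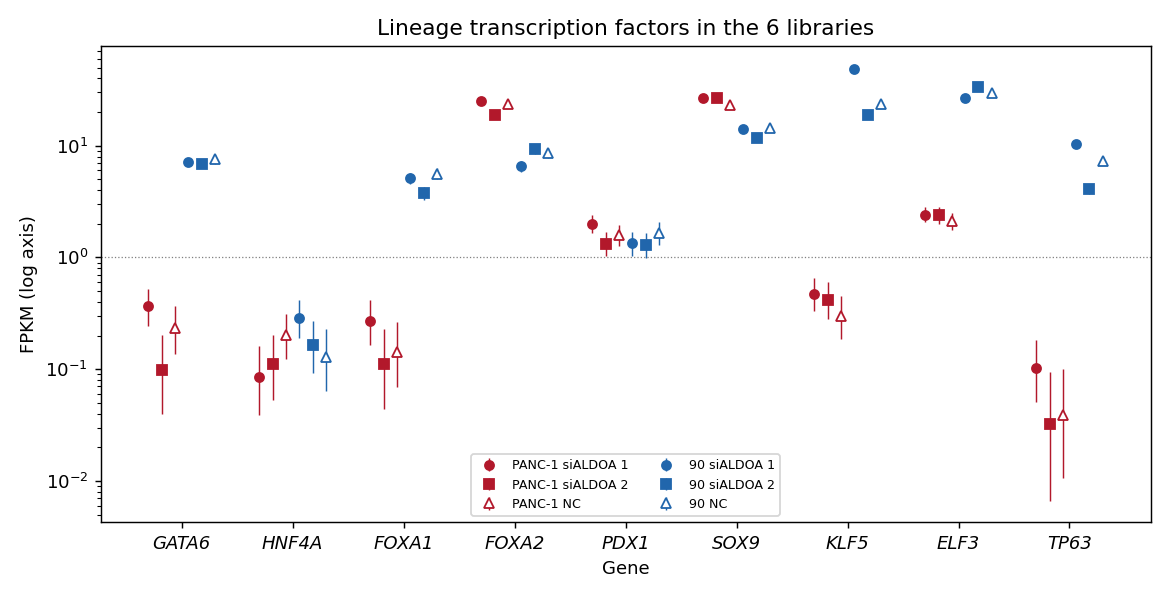
Expression of the 9 factors in each library, in FPKM on a log axis, with exact 95% Poisson intervals for the fragments counted (counting error only); the dotted line is at 1 FPKM. PANC-1 libraries are red and stand left of the blue 90 libraries. PANC-1 lies below 90 for GATA6, FOXA1, KLF5, ELF3 and TP63, above it for FOXA2 and SOX9, and overlaps it for HNF4A and PDX1.

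To ask how the lines differed, log2(FPKM + 1) was fitted with limma over the 12592 genes that averaged 1 FPKM or more, with terms for line and siALDOA. Called means an adjusted p (Benjamini-Hochberg) under 0.05, and differences run PANC-1 minus 90. Of the 9 factors, 8 passed the filter on level and 7 of these 8 were called, 2 higher and 5 lower in PANC-1. Of all tested genes, 38.8% were called, 20.4% higher and 18.4% lower. The same 7 factors did not overlap between the 3 libraries of each line, which held for 54.1% of tested genes. GATA6, FOXA1, KLF5 and TP63 passed the filter only through their level in 90, so the filter set their direction. The same holds for the genes said below to have passed through 1 line only. The other 4 tested factors were at 1 FPKM or more in both lines, and of these FOXA2 and SOX9 were higher, ELF3 was lower and PDX1 was not called. In bulk RNA, fewer cells with a transcript and less transcript per cell cannot be told apart.

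GATA6, the foregut GATA factor (chr18:22169589-22202528, GRCh38.p14, the build of all coordinates given here), was close to absent from PANC-1. It measured 0.364, 0.0991 and 0.231 FPKM in siALDOA 1, siALDOA 2 and NC of PANC-1, which is 30, 7 and 18 fragments. In 90 it measured 7.17, 6.87 and 7.54 FPKM in siALDOA 1, siALDOA 2 and NC, or 527, 493 and 505 fragments. The 90 libraries lay close together and far above PANC-1. The fitted difference was -2.74 (SE 0.176, limma, adjusted p = 0.000466), and the fragments pooled over each line gave a PANC-1 level 0.0332 times that of 90 (95% interval 0.0249 to 0.0434, counting error only).

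Of the other GATA genes, GATA2, GATA4 and GATA5 were called higher in PANC-1. GATA3, a factor of T cells and luminal epithelium, was not called (0.38, adjusted p = 0.135, limma). GATA5, another endodermal member of the family, measured 28.3, 24.4 and 30.9 FPKM in siALDOA 1, siALDOA 2 and NC of PANC-1 and 0.195 to 0.263 FPKM in 90, a called difference of 4.55 (SE 0.172, limma, adjusted p = 0.000179), and passed the filter through PANC-1 only. GATA4, which like GATA6 is expressed in foregut endoderm, was higher in PANC-1 as well, at 7.65 ± 0.825 FPKM against 3.39 ± 0.424 FPKM in 90. GATA2, better known from blood and endothelium, averaged 21.4 ± 3.36 FPKM in PANC-1 and 4.77 ± 0.813 FPKM in 90. The summed level of GATA2 to GATA6 was 50.3 to 63.2 FPKM in PANC-1 and 14.9 to 17.2 FPKM in 90. GATA6 made up 0.197% to 0.577% of that sum in PANC-1 and 40.4% to 48.1% in 90, whereas GATA5 made up 44.9% to 49.6% in PANC-1 and 1.13% to 1.55% in 90.

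**Figure D2:**
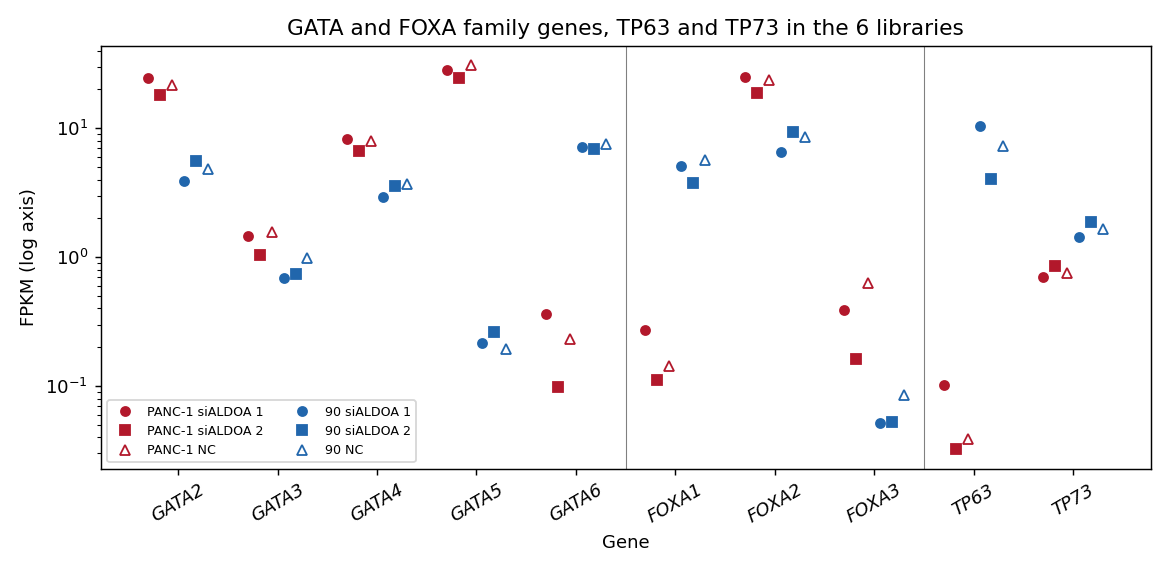
Levels of the GATA and FOXA family genes, TP63 and TP73 in each library, in FPKM on a log axis, with PANC-1 (red) left of 90 (blue). GATA5 is high in PANC-1 and GATA6 in 90, FOXA2 exceeds FOXA1 far more in PANC-1 than in 90, and TP63 and TP73 lie lower in PANC-1 than in 90.

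The forkhead factors differed in opposite directions. FOXA1 (chr14:37589552-37595249) measured 0.271, 0.111 and 0.143 FPKM in siALDOA 1, siALDOA 2 and NC of PANC-1 (20, 7 and 10 fragments). In the same order it measured 5.11, 3.75 and 5.63 FPKM in 90 (337, 241 and 338 fragments). FOXA1 was thus low throughout PANC-1 and moderate throughout 90, a difference of -2.30 (SE 0.201, limma, adjusted p = 0.00110). FOXA2 (chr20:22580998-22585490) ran the other way, with 25.2, 18.9 and 23.7 FPKM in PANC-1, against 6.58, 9.37 and 8.55 FPKM in 90. All PANC-1 libraries exceeded all 90 libraries, and the difference was 1.37 (SE 0.200, limma, adjusted p = 0.00544). In the siALDOA libraries alone, to which a fit without either NC library reduces, the FOXA2 difference was 1.36 (limma, adjusted p = 0.0519).

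FOXA2 exceeded FOXA1 by 93.0 to 171 times in PANC-1 and by 1.29 to 2.5 times in 90, a ratio that in PANC-1 rests on the 7 to 20 fragments of FOXA1. FOXA3, the liver and gut member, stayed below 1 FPKM in every library. LINC00261, a long noncoding RNA that neighbours FOXA2, was also higher in PANC-1, at 2.62, 3.65 and 2.69 FPKM in siALDOA 1, siALDOA 2 and NC, against 0.0214 to 0.209 FPKM in 90. Its difference was 1.82 (SE 0.191, limma, adjusted p = 0.00186), and it passed the filter through PANC-1 only. The other 4 antisense or neighbouring noncoding RNAs listed, GATA6-AS1, HNF4A-AS1, SOX9-AS1 and PDX1-AS1, were below 0.5 FPKM in every library and were not tested. With strand use in counting not given in the sources used here, reads of a gene and its antisense partner may be mixed.

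FOXA1 and TP63, both lower in PANC-1, have very different sequence before a RefSeq start, which is why the 250 bases upstream of it are shown for this pair (GRCh38.p14). FOXA1 lies on the minus strand at chr14:37595250-37595499 and TP63 on the plus strand at chr3:189631139-189631388, and neither window holds an exon of the GENCODE v29 basic set. The TP63 window lies inside the gene as RefSeq draws it and belongs to 1 of its several starts. It lies before the first of 5 different starts in the GENCODE v29 basic set, at 189631427, and the last is at 189789801. Which start was used in these libraries was not tested, since a value per gene does not separate them. The comparison with FOXA1 therefore covers this window only and not the other TP63 starts. Capitals mark matches, on either strand, to the E-box CACCTG bound by SNAI and ZEB repressors, the forkhead motif TGTTTNC, the GATA motif NGATAA, the GC box GGGCGG used by SP and KLF factors, and the ETS motif CNGGAAG.
FOXA1: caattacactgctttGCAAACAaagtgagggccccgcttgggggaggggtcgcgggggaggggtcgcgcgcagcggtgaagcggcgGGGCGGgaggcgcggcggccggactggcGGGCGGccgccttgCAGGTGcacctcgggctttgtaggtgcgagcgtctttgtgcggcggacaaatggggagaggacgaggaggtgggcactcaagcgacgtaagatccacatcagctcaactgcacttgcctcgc
TP63: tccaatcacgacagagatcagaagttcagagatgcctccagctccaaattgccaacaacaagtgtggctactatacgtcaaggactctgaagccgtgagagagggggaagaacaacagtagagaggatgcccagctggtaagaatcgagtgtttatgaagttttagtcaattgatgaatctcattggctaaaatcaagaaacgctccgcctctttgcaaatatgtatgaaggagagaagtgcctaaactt
The FOXA1 window is 67.2% GC with 26 CpG sites and holds 1 forkhead match, 2 GC boxes and 1 E-box, and the TP63 window is 44.0% GC with 6 CpG sites and no match. Over 35116 RefSeq windows of this length the medians were 58.0% GC and 11 CpG sites. The E-box was found in 17.5% of them, the forkhead motif in 15.5%, the GATA motif in 20.4%, the GC box in 42.6% and the ETS motif in 28.3%. Among the other factors that were lower in PANC-1, the GATA6 window held no match and the ELF3 window held 1 E-box. The KLF5 window at the start of the gene held none (40.8% GC, 3 CpG sites). The KLF5 window at its downstream start held 2 GC boxes (70.8% GC, 27 CpG sites). The GATA6, ELF3 and downstream KLF5 windows overlap exons of the GENCODE v29 basic set, so they are not only upstream sequence. The first ELF3 start of that set, at 202007945, lies before the ELF3 window. Promoter entries were matched for 6 of the 9 factors, and a match in letters does not show binding.

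HNF4A (chr20:44355699-44434596) was barely detected in either line. It measured 0.0855, 0.111 and 0.201 FPKM in siALDOA 1, siALDOA 2 and NC of PANC-1, and 0.288, 0.164 and 0.128 FPKM in the same libraries of 90. These values come from 39 fragments over the 3 PANC-1 libraries and 53 over the 3 libraries of 90, and the lines overlapped. It did not pass the level filter, and in a fit of all 27007 genes above 0 its difference was -0.07 (SE 0.0733, limma, adjusted p = 0.561). Of 14 other foregut regulators listed, 9 stayed below 1 FPKM in every library, among them HNF4G, FOXA3, ONECUT1, ONECUT2, PROX1, SOX17 and NR5A2. In a library, 11133 to 12687 of all 41768 named genes reached 1 FPKM. MNX1, a homeobox factor of the early pancreas, reached 0.967 to 1.09 FPKM in the siALDOA libraries of 90 and was not tested. Of the list 4 were tested and called higher in PANC-1, against 20.4% called higher over all tested genes. GATA4 and HHEX were at 1 FPKM or more in both lines, while GATA5 and CDX2 passed the filter through PANC-1 only. HHEX, needed for ventral pancreas budding, averaged 6.21 ± 0.364 FPKM in PANC-1 and 2.67 ± 0.233 FPKM in 90. CDX2, the intestinal homeobox factor, averaged 2.89 ± 0.607 FPKM in PANC-1 and 0.573 ± 0.104 FPKM in 90.

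PDX1 (chr13:27920000-27926313) was low in both lines, which overlapped. It measured 2.01, 1.33 and 1.58 FPKM in siALDOA 1, siALDOA 2 and NC of PANC-1 (113, 64 and 84 fragments). In 90 it measured 1.34, 1.29 and 1.64 FPKM in that order (67, 63 and 75 fragments). The difference was 0.12 (SE 0.186, limma, adjusted p = 0.677), and its 95% interval of -0.36 to 0.60 leaves room for a difference in either direction. Without siALDOA 1 of PANC-1, its highest library, the difference was -0.01. Factors of the acinar and endocrine lineages were mostly absent: PTF1A, NEUROG3, NEUROD1 and NKX2-2 were at 0 in all 6 libraries, and 9 of the 13 listed stayed below 1 FPKM throughout. Of these 13, 2 were tested, both through 90 only, and were lower in PANC-1. BHLHA15, a secretory cell factor also called MIST1, averaged 0.384 ± 0.297 FPKM in PANC-1 and 4.01 ± 1.17 FPKM in 90, and ISL1, an endocrine LIM homeobox factor, averaged 0.0824 ± 0.0375 FPKM in PANC-1 and 2.65 ± 0.873 FPKM in 90.

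SOX9, the ductal SRY-box factor (chr17:72121020-72126416), was abundant in both lines and higher in PANC-1. It measured 26.7, 26.5 and 23.1 FPKM in siALDOA 1, siALDOA 2 and NC of PANC-1, against 14.2, 11.8 and 14.3 FPKM in 90. The lowest PANC-1 library exceeded the highest 90 library. Its difference, 0.87 (SE 0.152, limma, adjusted p = 0.00943), was the smallest among the called factors. It lost its call when the libraries were rescaled by median ratios (0.74, adjusted p = 0.0553), a step that moved the median of all tested genes to 0.02, against 0.13 as deposited. The call was also lost in the siALDOA libraries alone (0.98, limma, adjusted p = 0.0526). A fit without either NC library reduces to that same difference and is not a separate result.

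Duct markers did not follow SOX9 as a group. Of the 9 listed, 7 were tested, 1 was called higher and 4 lower in PANC-1, against 20.4% and 18.4% of all tested genes. The median difference of the 7 was -1.43, against 0.13 over all tested genes. Of the 5 at 1 FPKM or more in both lines, 3 were called lower and 0 higher, while SPP1 passed through 90 only and CD24 through PANC-1 only. KRT7, a simple duct keratin, averaged 8.39 ± 2.74 FPKM in PANC-1 and 1155 ± 227 FPKM in 90. EPCAM averaged 13.1 ± 5.09 FPKM in PANC-1 and 111.9 ± 36.4 FPKM in 90, and KRT19, another duct keratin, 763 ± 100.3 FPKM in PANC-1 and 2063 ± 354 FPKM in 90. SPP1, osteopontin, was also lower in PANC-1. CD24, a surface glycoprotein, was the call in the other direction, at 17.9 ± 4.12 FPKM in PANC-1 and 0.874 ± 0.194 FPKM in 90. HES1 and MUC1 were not called, and CFTR and PROM1 were below 0.1 FPKM in every library.

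The general epithelial factors were much lower in PANC-1. KLF5, a zinc finger factor of proliferating epithelium (chr13:73054976-73077538), measured 0.475, 0.419 and 0.299 FPKM in siALDOA 1, siALDOA 2 and NC of PANC-1, against 48.3, 18.8 and 23.8 FPKM in 90. Every 90 library exceeded every PANC-1 library, but 90 siALDOA 1 stood apart from the other two. The difference of -4.37 (SE 0.374, limma, adjusted p = 0.00104) was the widest among the factors on this scale. ELF3, an epithelial ETS factor (chr1:202010587-202017183), measured 2.41, 2.38 and 2.10 FPKM in PANC-1, against 26.5, 33.7 and 29.7 FPKM in 90, a difference of -3.22 (SE 0.165, limma, adjusted p = 0.000255). Set against SOX9 within each library, KLF5 was 0.0129 to 0.0178 times the SOX9 level in PANC-1 and 1.59 to 3.40 times in 90. ELF3 was 0.0899 to 0.0911 times the SOX9 level in PANC-1, a narrow band, and 1.86 to 2.86 times in 90.

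Related epithelial regulators differed as well. Of 11 listed ETS, grainyhead, OVOL and KLF factors, 9 were tested, 6 were called lower in PANC-1 and 1 higher, with a median difference of -1.68. Over all tested genes, 18.4% were called lower and 20.4% higher, and the median was 0.13. EHF, an ETS factor close to ELF3, averaged 0.144 ± 0.0918 FPKM in PANC-1 and 25.1 ± 25.9 FPKM in 90, where siALDOA 1 held 55.0 FPKM and the other libraries 9.04 and 11.2 FPKM. GRHL2, a grainyhead factor that maintains CDH1, averaged 0.0701 ± 0.0386 FPKM in PANC-1 and 12.0 ± 3.09 FPKM in 90. SPDEF, a secretory cell ETS factor, averaged 0.170 ± 0.0316 FPKM in PANC-1 and 11.5 ± 1.06 FPKM in 90, and OVOL2, which represses mesenchymal genes, 0.463 ± 0.0606 FPKM in PANC-1 and 6.56 ± 0.617 FPKM in 90. OVOL1 and KLF4 were lower too, while GRHL3, named here after its values were seen, was higher in PANC-1 at 5.10 ± 0.184 FPKM, against 1.42 ± 0.320 FPKM in 90. Of these 9 tested factors, 5 passed the level filter through 90 only, which set their direction and weighs on that median. Of the other 4, 1 was called lower and 1 higher, and their median difference was -0.37.

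TP63 (chr3:189596746-189897276) was at the edge of detection in PANC-1. It measured 0.102, 0.0323 and 0.0391 FPKM in siALDOA 1, siALDOA 2 and NC, which is 11, 3 and 4 fragments. The 3 fragments of siALDOA 2 have an exact 95% Poisson interval of 0.619 to 8.77 fragments. In 90 it measured 10.4, 4.06 and 7.28 FPKM in siALDOA 1, siALDOA 2 and NC, or 1006, 383 and 641 fragments. The 90 libraries spread widely but stayed far above PANC-1. The fitted difference was -2.89 (SE 0.342, limma, adjusted p = 0.00276), and the pooled fragments, 18 in PANC-1 and 2030 in 90, gave a PANC-1 level 0.00816 times that of 90 (95% interval 0.00482 to 0.0129, counting error only). The gene has 11 transcripts with 5 different starts, spread over 158374 bases of chromosome 3 in the GENCODE v29 basic set, and the long TAp63 and short ΔNp63 forms cannot be told apart in a value per gene.

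The log2(FPKM + 1) scale understates such changes, since PANC-1 values below 1 FPKM are pulled towards 0. With limma-voom on the whole fragment counts that the FPKM values gave back, the same 7 factors were called. TP63 then had the widest difference, -6.89, followed by KLF5 at -6.13, GATA6 at -5.07, FOXA1 at -4.80 and ELF3 at -3.69. FOXA2 and SOX9 changed little with the scale, at 1.48 and 0.92.

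**Figure D3:**
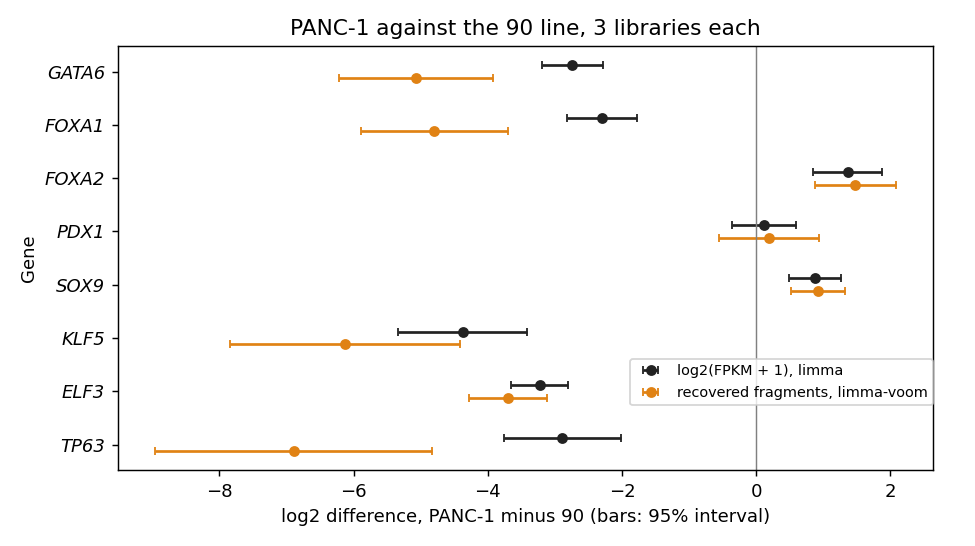
Difference between PANC-1 and 90 (log2, PANC-1 minus 90, 3 libraries each) for the 8 tested factors, with 95% intervals, from limma on log2(FPKM + 1) (black) and from limma-voom on recovered fragments (orange). FOXA2 and SOX9 lie to the right of 0, PDX1 spans it, and the 5 factors that were lower in PANC-1 lie farther left on the fragment scale.

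Other squamous regulators were mostly lower in PANC-1 or scarce in both lines, with TFAP2A and TFAP2C as exceptions. Of 10 listed squamous regulators, 5 were tested and 4 called, all lower in PANC-1, against 18.4% called lower over all tested genes. The median difference of the 5 was -1.11, against 0.13 over all tested genes. Of the 5, 3 passed the filter through 90 only, and of the other 2, PITX1 was called lower and TFAP2A was not called. SOX15, an SRY-box factor of stratified epithelium, averaged 0.651 ± 0.187 FPKM in PANC-1 and 43.2 ± 8.23 FPKM in 90. PITX1, a homeobox factor, averaged 22.4 ± 3.67 FPKM in PANC-1 and 49.7 ± 9.84 FPKM in 90, and TP73, a relative of TP63, 0.773 ± 0.0808 FPKM in PANC-1 and 1.65 ± 0.222 FPKM in 90. TFAP2A, an AP-2 factor of surface ectoderm, averaged 10.8 ± 0.364 FPKM in PANC-1 and 9.25 ± 1.11 FPKM in 90. TFAP2C, its relative, measured 1.30 to 2.09 FPKM in PANC-1 and was at 0 in all 3 libraries of 90, and did not pass the level filter. SOX2, ZNF750, BNC1 and GLI2 stayed below 1 FPKM in every library.

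Genes known as p63 targets in basal epithelium were far apart in the 2 lines. Of 18 listed, 16 were tested, 14 were called lower and 1 higher in PANC-1, with a median difference of -4.78, against 18.4% called lower, 20.4% called higher and a median of 0.13 over all tested genes. Of the 16, 7 passed the filter through 90 only, and of the 9 at 1 FPKM or more in both lines, 7 were called lower and 1 higher. The basal keratin KRT5 measured 3.68, 0.811 and 0.463 FPKM in siALDOA 1, siALDOA 2 and NC of PANC-1, against 618, 791 and 759 FPKM in 90, and its difference was -8.28 (SE 0.445, limma, adjusted p = 0.000291). KRT6A, an activation keratin, averaged 1.69 ± 1.72 FPKM in PANC-1 and 689.6 ± 104 FPKM in 90. LAMB3, a laminin 332 chain, averaged 1.13 ± 0.687 FPKM in PANC-1 and 318 ± 61.9 FPKM in 90, and COL17A1, a hemidesmosome collagen, 0.478 ± 0.420 FPKM in PANC-1 and 182 ± 17.7 FPKM in 90. KRT14, the usual partner of KRT5, was low even in 90 at 3.40 ± 1.33 FPKM, against 0.0860 ± 0.0951 FPKM in PANC-1. The desmosome genes DSG3 and DSC3 were below 0.1 FPKM in every library. PERP, a desmosome-associated membrane protein, was the call in the other direction, at 178 ± 30.1 FPKM in PANC-1 and 51.5 ± 12.2 FPKM in 90, and ITGA6 was not called (both named after their values were seen).

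Small amounts of many genes that are abundant in 90 were found in siALDOA 1 of PANC-1, the library with the most genes above 0 (23356, against 19171 to 20371 in the others). For each of the 5 factors that were lower in PANC-1, siALDOA 1 held the highest of the 3 PANC-1 levels. This was not particular to them, since FOXA2, SOX9 and PDX1 were highest there too, while HNF4A was lowest. For ELF3 the lead was small, at 2.41 FPKM against 2.38 FPKM in siALDOA 2. TP63 stood at 1.40% of its mean in 90 in siALDOA 1, at 0.446% in siALDOA 2 and at 0.540% in NC. The same library was highest for 13 of the 14 p63 targets that were called lower, with KRT5 at 0.509% of 90, against 0.112% in siALDOA 2 and 0.0640% in NC. Over the 147 genes that averaged 10 FPKM or more in 90 and under 1% of that in PANC-1, siALDOA 1 was highest for 127, with a median of 0.653% of 90, against 0.242% in siALDOA 2 and 0.203% in NC. The source of these reads was not tested. Without that library TP63 averaged 0.0357 FPKM in PANC-1, GATA6 0.165 and FOXA1 0.127 FPKM, and the same 7 factors were called.

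**Figure D4:**
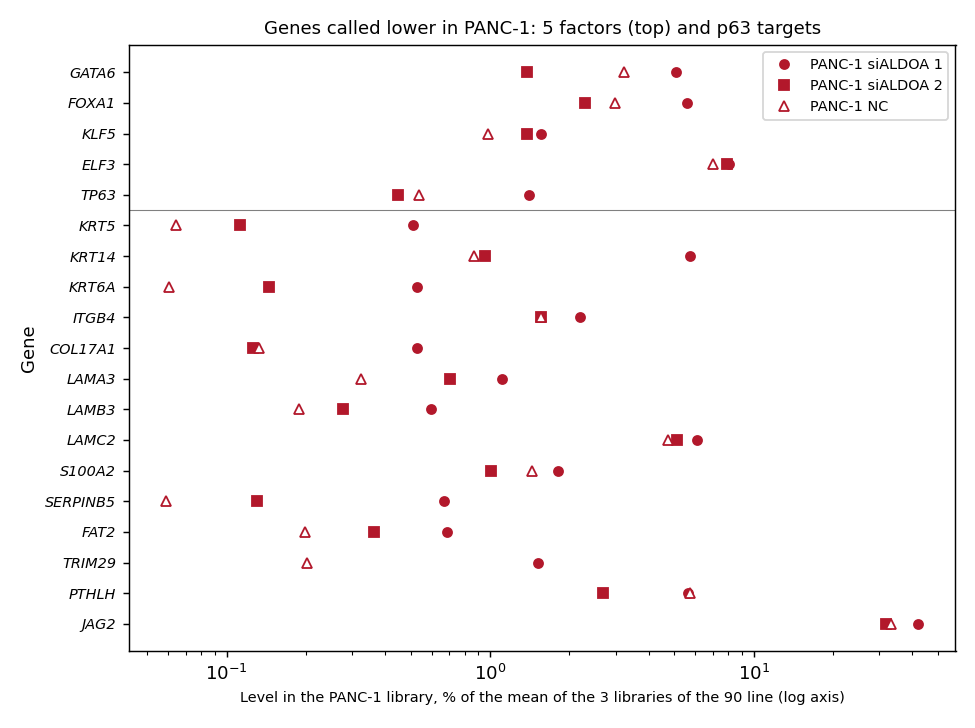
Level in each PANC-1 library as a percentage of the mean of the 3 libraries of 90 (log axis), for the 5 factors and 14 p63 target genes called lower in PANC-1. Circles (siALDOA 1) lie farthest right for all 5 factors and for 13 of the 14 targets; TRIM29 is at 0 in siALDOA 2 and has no square.

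Whether ALDOA knockdown altered these factors was asked with the same fit. For siALDOA minus NC over both lines, limma called 0 of 12592 genes (0% called, 43 with an unadjusted p under 0.05), and limma-voom called 0 as well. ALDOA itself had a difference of -1.12 (SE 0.160, unadjusted p = 0.000907) and did not pass the adjustment. The factors' differences lay between -0.12 for FOXA1 and 0.24 for KLF5, with a median of -0.05, against 0.01 over all tested genes. The 95% intervals were narrowest for SOX9, -0.38 to 0.44, and widest for KLF5, -0.77 to 1.26. Fits within each line and the fit of the difference between the lines called 0 genes too, with 21 genes at an unadjusted p under 0.05 in PANC-1, 33 in 90 and 24 for the difference.

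Outside KLF5 and TP63, factors at 1 FPKM or more in a line stayed between 66.6% and 127% of its NC library in each siALDOA library. GATA6 in 90 was at 95.1% of NC in siALDOA 1 and 91.2% in siALDOA 2, and ELF3 in PANC-1 at 115% and 113%. KLF5 and TP63 in 90 ranged more widely, with the siALDOA libraries on opposite sides of NC. KLF5 was at 203% of NC in siALDOA 1 and 79.0% in siALDOA 2, and TP63 at 143% and 55.8%. For both genes the 2 siALDOA libraries of 90 differed from each other more than their mean differed from NC.

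These libraries also differed from NC in a way that went with the GC content of genes. In siALDOA 1 of 90 the median log2 change from NC was 1.40 over tested genes of at most 39.6% GC, and -0.27 over those above 61.2% GC. In siALDOA 1 of PANC-1 the same medians were -1.02 and 0.10, the opposite slope. TP63, at 42.5% GC, changed by 0.46 in siALDOA 1 of 90, where genes of its GC range had a median of 0.80, and by -0.71 in siALDOA 2, where that median was -0.14. KLF5, at 47.0% GC, changed by 0.99 in siALDOA 1 of 90, against a median of 0.00 in its range, and exceeded 97.5% of the genes there. In siALDOA 2 of 90, TP63 exceeded 7.71% of the genes of its range, FOXA1 4.56% and PDX1 3.93%. In siALDOA 1 of PANC-1, TP63 changed by 0.08, against a median of -0.53, and exceeded 92.2%. With 11 fragments there and 4 in NC, TP63 could hardly fall on the log2(FPKM + 1) scale. What set that rank was not tested. After removal of each library's GC trend, KLF5 in 90 stood at 46.0 and 23.2 FPKM in siALDOA 1 and 2, against 24.4 FPKM in NC, and TP63 at 7.23 and 6.17 FPKM, against 8.86 FPKM in NC. The other tested factors lie between 51.0% and 59.9% GC, in ranges where the median changes were between -0.24 and 0.13.

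**Figure D5:**
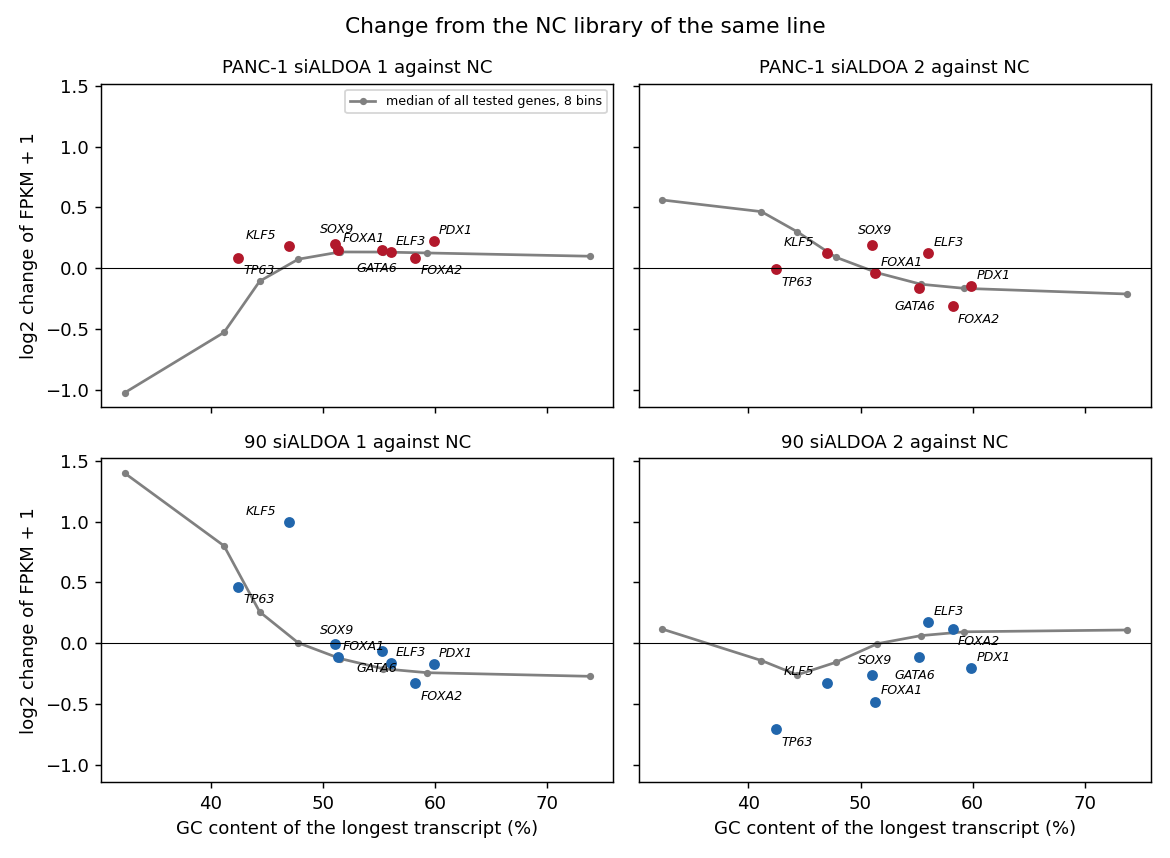
Change of the 8 tested factors from the NC library of their line, in log2 units of FPKM + 1, against the GC content of the longest transcript (%), for the 4 siALDOA libraries; the grey line is the median of all tested genes in 8 bins of GC content. KLF5 lies above the line in siALDOA 1 of 90, TP63 lies above it in siALDOA 1 of PANC-1 and below it in siALDOA 2 of 90, and PDX1 and FOXA1 lie below it in siALDOA 2 of 90. In PANC-1 the level of TP63 is so low that it could hardly fall on this scale.

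Known endodermal and classical subtype genes ranged from near 0 to abundant. Of 18 such genes listed, 11 stayed below 1 FPKM in every library, among them VIL1, CDH17, LGALS4 and APOB. In a library, 11133 to 12687 of all 41768 named genes reached 1 FPKM. Of the 18, 4 were tested, 3 called lower and 1 higher in PANC-1, against 18.4% and 20.4% of all tested genes. The 3 lower ones passed the filter through 90 only. CEACAM6, a cell surface adhesion protein, averaged 0.519 ± 0.447 FPKM in PANC-1 and 40.0 ± 6.32 FPKM in 90. ANXA10, a gastric annexin, averaged 0.0967 ± 0.137 FPKM in PANC-1 and 29.9 ± 10.6 FPKM in 90, and SERPINA1, alpha-1-antitrypsin, 0.549 ± 0.0535 FPKM in PANC-1 and 4.03 ± 0.638 FPKM in 90. AGR2, a secretory pathway disulfide isomerase, was higher in PANC-1, at 33.8, 70.1 and 78.0 FPKM in siALDOA 1, siALDOA 2 and NC, against 23.9, 15.6 and 17.5 FPKM in 90. For all lists named here the siALDOA fit called 0 genes.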

How the data were processed

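The authors deposited FPKM values per gene and library, made with HISAT2 and featureCounts on hg38, per the submitters' processing notes, with versions and strand setting not given in the sources used here. That table had 41769 rows, 1 without a name. Values were analysed as log2(FPKM + 1) with limma 3.58.1 (R 4.3.3) with an intensity trend and two-sided tests, for the 12592 genes that averaged 1 FPKM or more. Line and siALDOA effects came from an additive fit with line and siALDOA as terms; effects within a line came from fitting the 4 group means, on the assumption that a lone NC library varies as siALDOA libraries do. Library depth, gene lengths and whole fragments were recovered from the FPKM values for 99.9% of genes above 0 (26972 of 27007, tolerance 0.001 fragments); limma-voom on these was chosen after seeing the data. Intervals of fragment counts are exact Poisson, cover counting error only, and depth is that of the recovered totals. GC content is that of the longest GENCODE v29 transcript, available for 90.6% of tested genes. Promoter windows are from RefSeq.

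The factors and the 17 gene lists were chosen with earlier results of these data known. The text names ALDOA, the 9 factors, up to 4 called genes of each list with the widest difference between the lines, the foregut, squamous, noncoding neighbour and epithelial check lists, and for each tested factor the 3 genes best correlated with it; genes named outside this rule are members of the same lists, chosen after their values were seen. A few genes that the rule names, or that the counts of the lists include, are not reported here. The fits were tested on simulated data.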

Additional observations from a re-analysis of the deposited data

Results flagged for a closer look

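SOX9 and HNF4A had both siALDOA libraries on one side of NC in PANC-1 and on the other side in 90. For SOX9 the siALDOA libraries of PANC-1 were at 115.4% and 114.8% of NC and those of 90 at 99.2% and 82.3%. The siALDOA effect in PANC-1 minus that in 90 was 0.3309 on the log2 scale (SE 0.376), which did not pass the adjustment in limma's fit of the difference, where 0 genes were called and 24 had an unadjusted p under 0.05. For HNF4A the siALDOA libraries of PANC-1 were at 42.5% and 55.1% of NC and those of 90 at 224% and 127%. Its difference was -0.2467 (SE 0.114 in the fit without a level filter) and was not called either, and it rests on 9 to 27 fragments per library.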

How the results depend on the processing

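Each of the 5 factors lower in PANC-1 was called and kept its direction under every alternative in which it was tested. For GATA6, FOXA1, KLF5 and TP63 the level filter had set that direction, so keeping it is no separate result. Of the alternatives for PANC-1 against 90, a filter at a mean of 5 FPKM left 4 factors tested and 4 called. The siALDOA libraries alone called 2423 genes and 5 factors, without FOXA2 (1.36, adjusted p = 0.0519) and SOX9 (0.98, adjusted p = 0.0526). Leaving out either NC library gave the same line differences, since the remaining NC library is then fitted by its own term. These fits are therefore 1 result. Leaving out 1 library at a time called 2422 to 4110 genes, lowest without either NC library (2422 without that of PANC-1, 2424 without that of 90), and gave PDX1 -0.0078 to 0.20. With a replicate block pairing same-numbered libraries, 3258 genes and all 7 factors were called. The deviations of same-numbered siALDOA libraries correlated at -0.86, and the siALDOA 1 libraries had opposite GC slopes. Whether equal numbers pair the samples was not tested. The crossed pairing, chosen after seeing the data, called 7594 genes. Counts by median ratios were 3700 genes, 43.4% of them higher, against 52.6% as deposited.

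For siALDOA over both lines no alternative called a factor. Leaving out siALDOA 1 of both lines called 17 genes and gave SOX9 -0.035 and KLF5 -0.099; a pseudocount of 0.1 gave TP63 0.037. Leaving out 1 library at a time gave ranges that crossed 0 for FOXA1 (-0.30 to 0.055), PDX1 (-0.19 to 0.036), TP63 (-0.28 to 0.22), SOX9 (-0.14 to 0.19), KLF5 (-0.051 to 0.51) and GATA6 (-0.12 to 0.012). Without a level filter 38 genes were called within 90 and 49 within PANC-1, none of them a factor. The causes were not tested. At 3 to 37 fragments per library, levels of GATA6, FOXA1, KLF5 and TP63 in PANC-1 and of HNF4A in both lines are limited by counting error.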

Other observations

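Regulators of epithelial-mesenchymal transition differed between the lines without a common direction. SNAI1, a zinc finger repressor of CDH1, averaged 7.62 ± 1.31 FPKM in PANC-1 and 0.420 ± 0.194 FPKM in 90 (SD, n = 3 each), a called difference of 2.60 (SE 0.219, limma). Its relative SNAI2, also expressed in basal epithelium, averaged 0.190 ± 0.129 FPKM in PANC-1 and 24.7 ± 7.04 FPKM in 90, a called difference of -4.40 (SE 0.261). ZEB1, another CDH1 repressor, was not called and varied within PANC-1, at 0.0906, 4.23 and 1.06 FPKM in siALDOA 1, siALDOA 2 and NC. SNAI1 and ZEB1 passed the level filter through PANC-1 only and SNAI2 through 90 only. Among partners and cofactors of the 9 factors, 8 of 12 were tested, with 2 called higher and 3 lower in PANC-1. Over all tested genes, 20.4% were called higher and 18.4% lower. ZFPM1, a GATA cofactor also called FOG1, passed through 90 only and averaged 0.670 ± 0.199 FPKM in PANC-1 and 4.04 ± 0.346 FPKM in 90. The nuclear receptors NR2F1 and NR2F2 went opposite ways, NR2F1 at 5.68 ± 0.645 FPKM in PANC-1 and 1.78 ± 0.165 FPKM in 90, and NR2F2 at 9.82 ± 1.32 FPKM in PANC-1 and 21.4 ± 3.58 FPKM in 90. PBX3, a homeobox partner, was higher in PANC-1 and PBX2 lower. Of 12 further family members, 10 were tested, with SOX12 and GATA2 called higher and SOX13 called lower in PANC-1.

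The genes whose log2(FPKM + 1) tracked each factor best over the 6 libraries were ERBB3, RAB38 and TPD52L1 for GATA6, FHL1, MYH13 and PRICKLE1 for FOXA1, and CCS, TSEN34 and LARP6 for FOXA2. They were PMS2CL, CSRNP2 and NUP98 for SOX9, HERC6, MAL2 and C6orf141 for KLF5, GJB5 and FUT3 for ELF3, and FRAS1, DNAJC22 and GPR110 for TP63. Pearson's r was at least 0.999 for each of these. The points share line and library depth, and between 89 genes (SOX9) and 790 genes (ELF3) reached an r of 0.99. PDX1, the factor not called between the lines, had COPZ2, CDC25A and SUV420H2 as its closest genes, at r of 0.994, 0.986 and 0.967.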
